A study of Caenorhabditis elegans with 2 samples.

Results

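The heat shock chaperone genes hsp-1, hsp-3, hsp-4, hsp-6, hsp-60 and hsp-110 of Caenorhabditis elegans were examined in chromatin immunoprecipitation sequencing (ChIP-seq) peaks of the transcription factor DIE-1. They are 6 of 19973 nuclear protein-coding genes in the WBcel235 (ce11) gene models and were matched by symbol. They were chosen from genes known to have peaks in these lists and from their relatives, so the values below are a description and carry no test. Every sample was of strain RW10316, a transgenic line in which DIE-1, a zinc finger protein, carries a C-terminal GFP-FLAG tag. The animals were whole young adult hermaphrodites, collected 64 hours after they had been synchronized as starved L1 larvae. The series held 1 group with 2 biological replicates and no untagged or untreated group, and the control library was not analysed here. All cell types of the animal were mixed, so a peak cannot be assigned to a tissue. No heat or folding stress is named in the labels.

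Chaperones bind unfolded proteins and keep them from aggregating. Those of the HSP70 family cycle between binding and release with ATP, helped by J-domain proteins and nucleotide exchange factors, while chaperonins fold proteins inside a closed ring. Each compartment has its own set, and stress in the cytosol, the endoplasmic reticulum (ER) or the mitochondrion induces the matching set through HSF-1, through IRE-1 and XBP-1, or through ATFS-1. The cytosolic members here are hsp-1, the constitutive HSC70, and hsp-110, an exchange factor of HSP70. The ER members hsp-3 and hsp-4 both encode BiP, the HSP70 of the ER lumen, and hsp-4 is the usual reporter of the ER unfolded protein response. The mitochondrial members are hsp-6, the HSP70 of the matrix, and hsp-60, the chaperonin of the matrix, both usual reporters of mitochondrial stress.

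The authors gave a list of 1432 peaks, here called reproducible, which was left by their threshold on agreement between replicates. There were also 3 longer relaxed lists that hold background as well: 30000 peaks of the pooled reads, 23789 of replicate 1 and 29268 of replicate 2. Signal is the enrichment that the authors assigned to a peak, on a scale that the labels and files do not state, and rank 1 is the highest signal of a list. The reproducible peaks were the 1432 strongest pooled peaks, down to a signal of 79.4. Being in that list therefore does not show that a given peak was strong in both replicates. The lowest signal was 18.4 in the pooled list, 11.4 in replicate 1 and 12.5 in replicate 2. Read depth is unknown from these lists. A summit, the highest point of a peak, was counted for a gene inside a promoter window around any annotated transcript start, which reached 1000 bp upstream of it and 300 bp into the gene. Distances are negative upstream of the start, and coordinates are ce11, counted from 1.

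The DNA under the summits of hsp-60, hsp-1 and hsp-6 is shown first, because they are the strongest promoter peak of the 6 genes, one that differed between replicates and one below the reproducible list. Each line gives 101 bases centred on the pooled summit, 5′ to 3′ along the gene's strand, from the RefSeq genome of the same build. Capitals mark CCAAT on either strand, the only one of the searched motifs found in these 3 windows, and it occurs at hsp-60 alone.
hsp-60, chrIII:1619083-1619183, plus strand: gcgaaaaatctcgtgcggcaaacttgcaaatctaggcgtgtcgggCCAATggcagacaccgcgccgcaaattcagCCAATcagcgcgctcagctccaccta
hsp-1, chrIV:17278476-17278576, plus strand: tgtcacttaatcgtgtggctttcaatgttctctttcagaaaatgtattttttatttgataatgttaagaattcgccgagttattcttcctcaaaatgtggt
hsp-6, chrV:4827104-4827204, minus strand: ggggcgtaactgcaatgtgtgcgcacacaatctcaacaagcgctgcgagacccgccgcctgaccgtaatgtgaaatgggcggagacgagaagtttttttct

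The windows just upstream of 3 genes are shown next, because they hold the letters of stress response elements. Each gives the 250 bases before the outermost annotated start. Capitals mark GAANNTTC and TTCNNGAA, the paired units of the heat shock element, TGACGTG, the core of an element bound by XBP-1 and ATF6 in mammals, CCACG, a part of the ER stress element, and the TATA box TATAAA, all on both strands.
hsp-1, chrIV:17278709-17278958, plus strand: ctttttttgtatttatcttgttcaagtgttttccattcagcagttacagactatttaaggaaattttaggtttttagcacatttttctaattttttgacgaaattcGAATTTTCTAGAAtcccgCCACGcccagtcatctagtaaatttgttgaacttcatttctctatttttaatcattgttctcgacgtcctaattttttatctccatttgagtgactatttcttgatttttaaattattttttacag
hsp-110, chrIII:8446910-8447159, minus strand: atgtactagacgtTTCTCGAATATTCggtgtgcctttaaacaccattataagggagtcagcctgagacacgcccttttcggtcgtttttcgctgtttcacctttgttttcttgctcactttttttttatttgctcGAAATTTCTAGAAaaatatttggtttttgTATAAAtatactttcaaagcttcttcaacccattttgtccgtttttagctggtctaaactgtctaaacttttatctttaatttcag
hsp-4, chrII:7352646-7352895, minus strand: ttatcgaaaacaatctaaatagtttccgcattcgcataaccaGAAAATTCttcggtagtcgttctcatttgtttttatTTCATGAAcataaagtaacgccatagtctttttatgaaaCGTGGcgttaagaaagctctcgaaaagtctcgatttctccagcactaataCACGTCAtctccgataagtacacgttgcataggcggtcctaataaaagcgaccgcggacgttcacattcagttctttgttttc

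Each of the 3 compartments had 1 gene with a reproducible promoter peak and 1 without. The mitochondrial hsp-60 was highest with a pooled signal of 174.3, the ER hsp-3 had 142.2 and the cytosolic hsp-1 had 92.0. Below the reproducible list came hsp-6 with 68.5, hsp-110 with 61.7 and hsp-4 with 59.8. A reproducible peak lay at 3 of 6 members, against 3.39% of all 19973 genes (677 genes). The choice of the members used these peaks, so nothing is read from that difference. The pooled signals ran from 61.7 to 92.0 in the cytosolic pair, from 59.8 to 142.2 in the ER pair and from 68.5 to 174.3 in the mitochondrial pair, so the 3 compartments overlapped.

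All 6 members had a summit in the window of the pooled relaxed list, of replicate 1 and of replicate 2. Such summits lay at 41.6% of all genes in the pooled list, 36.5% in replicate 1 and 40.9% in replicate 2, so such a summit is common. The strongest pooled signals of the 6 members ran from 59.8 to 174.3 with a median of 80.2, against a median of 33.8 over the 8306 genes with a pooled peak, whose upper quartile was 48.6 and whose 90th percentile was 72.1. Of these 8306 genes, 1.31% had a higher signal than hsp-60, 2.09% than hsp-3, 5.79% than hsp-1, 11.3% than hsp-6, 14.3% than hsp-110 and 15.3% than hsp-4. The 3 members without a reproducible peak thus stood in the upper quartile of genes with a pooled peak, under the level at which the reproducible list ends.

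**Figure D1:**
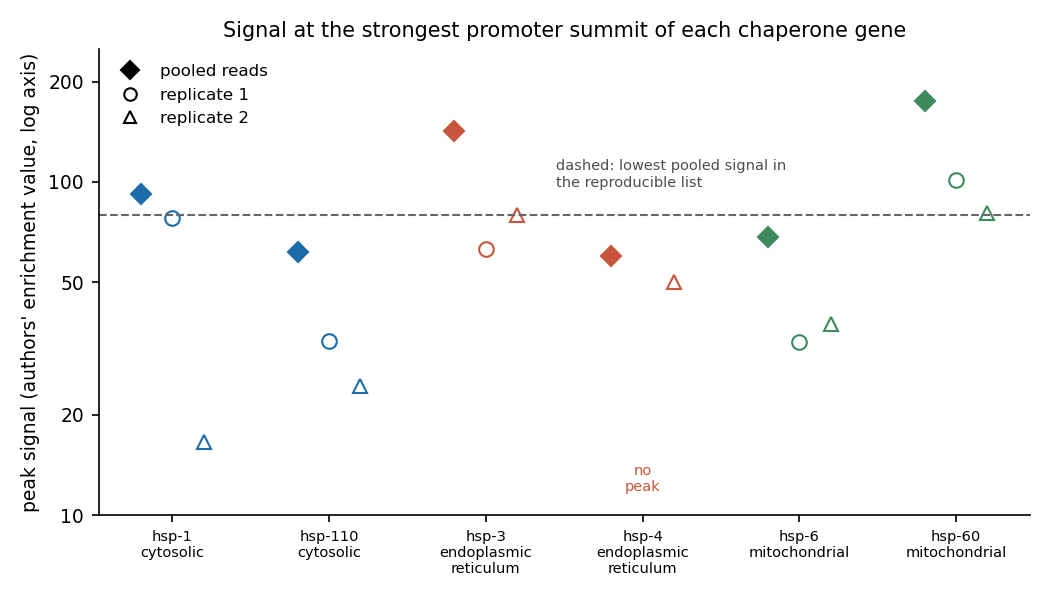
Peak signal (the authors' enrichment value, log axis) at the strongest pooled promoter summit of each of the 6 genes, with filled diamonds for the pooled reads, open circles for replicate 1 and open triangles for replicate 2, and colour for the compartment. The pooled values of hsp-1, hsp-3 and hsp-60 lie above the dashed line at 79.4, where the reproducible list ends, and replicate 1 has no peak within 200 bp of the hsp-4 summit.

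Of the cytosolic genes, hsp-1 (WBGene00002005, chrIV:17278959-17281330, plus strand) has 1 annotated start. Its reproducible peak, at chrIV:17278308-17278743, had its summit at −433 bp and rank 1076. The signal within 200 bp of that summit was 77.8 in replicate 1, at rank 293 and 83 bp nearer to the gene, and 16.6 in replicate 2, at rank 18472. Replicate 1 was high and replicate 2 below the median of its list, 18.6. The log2 ratio of replicate 1 to replicate 2 was 2.23, and 0 of the 676 genes with both values had a higher one. The median ratio over those genes was −0.37, with quartiles of −0.69 and 0.01, so most of those genes had the higher value in replicate 2. The strongest replicate 2 summits in the hsp-1 window lay elsewhere, with 22.8 at 166 bp, in a coding exon, and 18.3 at −90 bp. The remaining pooled summit, at −229 bp, had a signal of 18.7. The promoter call of hsp-1 therefore rests on replicate 1.

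For hsp-110 (WBGene00016250, chrIII:8443910-8446909, minus strand), the promoter peak at chrIII:8446900-8447335 had its summit at −209 bp and rank 2446. Its signal was 33.4 in replicate 1, at rank 1950, and 24.4 in replicate 2, at rank 7798. Both replicates held the peak, and it was outside the 1432 strongest of each. A pooled summit of nearly the same signal, 60.5, lay in a coding exon at 428 bp, 128 bp past the edge of the window. At 416 bp, replicate 2 had a signal of 37.3, above its promoter value.

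Of the ER genes, hsp-3 (WBGene00002007, chrX:6089028-6092124, minus strand) has 3 annotated starts. Its reproducible peak, at chrX:6091960-6092395, had its summit at −54 bp and rank 477. The signal was 62.9 in replicate 1, at rank 487, and 79.7 in replicate 2, at rank 518. The replicates placed hsp-3 at close ranks, their summits lay 23 bp apart, and the log2 ratio of −0.34 was near the median ratio of −0.37. A further pooled summit lay in an intron at −516 bp from an internal start, with 68.2 in the pooled list, 28.5 in replicate 1 and 42.1 in replicate 2. Another at −718 bp, in a coding exon, had 33.8. Both stayed below the reproducible list.

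For hsp-4 (WBGene00002008, chrII:7350112-7352645, minus strand), which also has 3 annotated starts, the strongest pooled peak was at chrII:7352398-7352833, with its summit at 29 bp inside the 5′ untranslated region and rank 2599. Replicate 2 had 49.99 there, at rank 1300, while replicate 1 had no peak within 200 bp. In replicate 1 the strongest summit of the window was 20.8 at −601 bp. The hsp-4 summit at the start was thus in the lists of the pooled reads and of replicate 2, with no counterpart in replicate 1. A second pooled summit at −592 bp had 42.9, and there the replicates were close, with 20.8 in replicate 1 and 20.2 in replicate 2. The other pooled summits of hsp-4 were 34.2 at 208 bp from an internal start and 18.6 at −792 bp.

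Of the mitochondrial genes, hsp-60 (WBGene00002025, chrIII:1619742-1625803, plus strand) has 4 annotated starts. Its reproducible peak, at chrIII:1618915-1619350, had its summit at −609 bp and rank 309. The signal was 101.1 in replicate 1, at rank 138, and 80.7 in replicate 2, at rank 501. Among summits in the promoter windows, it was the highest of the 6 genes in each replicate list. The log2 ratio was 0.33, and 57 of 676 genes had a higher one. An internal start had weaker pooled summits of 57.9 at −507 bp and 46.5 at −200 bp, both in introns. At the first of these, replicate 1 had 34.7 and replicate 2 had 20.8. At the second, replicate 1 had 20.2 and replicate 2 had 20.1. The nearest pooled summit outside the window was 20.2, at 338 bp from a start.

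For hsp-6 (WBGene00002010, chrV:4824124-4826760, minus strand), with 1 annotated start, the promoter peak at chrV:4826936-4827371 had its summit at −394 bp and rank 1928. The signal was 33.2 in replicate 1, at rank 1979, and 37.6 in replicate 2, at rank 2493. The replicates were close to each other at hsp-6, with a log2 ratio of −0.18. No other pooled summit lay in its window.

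Counted over the 4 lists, the windows held 11 peaks at hsp-60, 10 at hsp-4, 9 at hsp-3, 7 at hsp-1, and 4 each at hsp-6 and hsp-110. The genes with several annotated starts have wider windows in sum, and they held the higher counts.

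When each replicate's 1432 strongest peaks were used in place of the reproducible list, 3 of 6 members had a promoter summit in each replicate, but not the same 3. In replicate 1, whose 1432 strongest peaks reach down to 38.2, they were hsp-1, hsp-3 and hsp-60, against 3.44% of all genes. In replicate 2, whose 1432 strongest reach down to 47.9, they were hsp-3, hsp-4 and hsp-60, against 3.22% of all genes. Only hsp-3 and hsp-60 had a reproducible summit with one of the strongest summits of both replicates within 200 bp, a condition that 2.06% of all genes met (411 genes). By that measure, which was added after the data had been seen, the ER and the mitochondrion kept 1 gene each and the cytosol 0 of 2.

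**Figure D2:**
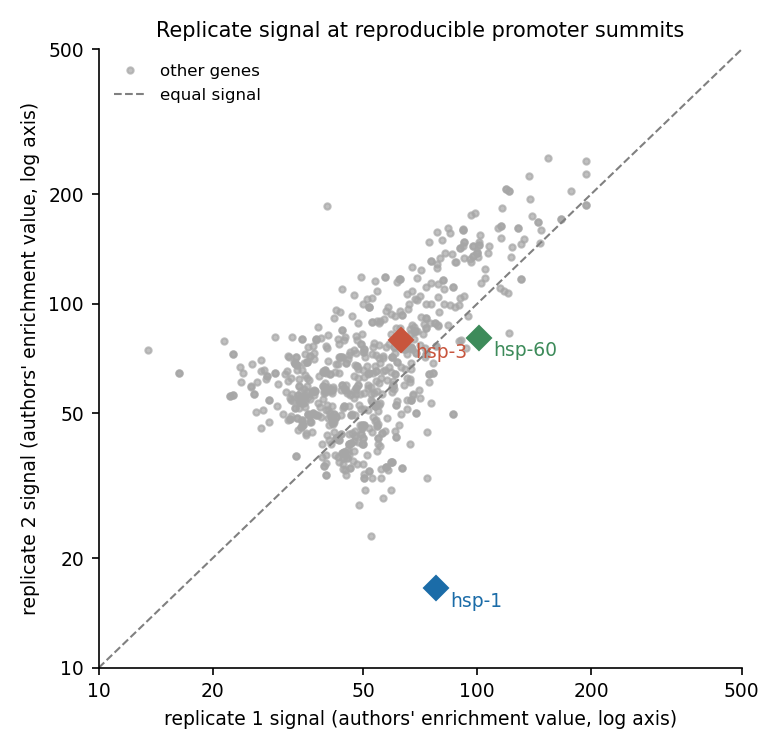
Replicate 1 signal (x axis) against replicate 2 signal (y axis), both on log axes in the authors' enrichment value, at the strongest reproducible promoter summit of each gene with a peak within 200 bp in both replicates (676 genes, grey). The members are coloured diamonds, and hsp-1 (77.8 in replicate 1 and 16.6 in replicate 2) lies below the diagonal, apart from hsp-3 and hsp-60.

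Among the 677 genes with a reproducible promoter peak, hsp-60 was at rank 110, hsp-3 at 175 and hsp-1 at 482. The genes nearest to each member in the log2 signal of the 2 replicates were found as a further description. For hsp-3 these were F55H12.7, with 63.4 in replicate 1 and 80.3 in replicate 2, and F17H10.1, with 63.9 in replicate 1 and 81.2 in replicate 2. For hsp-60 they were Y22D7AL.10, which shares its summit, and hlh-11, a helix-loop-helix transcription factor gene with 93.3 in replicate 1 and 75.5 in replicate 2. The genes nearest to hsp-1 were much farther away, at a log2 distance of 0.74 for smc-5 and 0.94 for F55H12.2, against 0.015 for the nearest to hsp-3. Over the 2 replicates, hsp-3 had close neighbours and hsp-1 did not.

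The strongest pooled summit of 3 of the 6 members also lay in the window of another protein-coding gene. The hsp-60 summit was −204 bp from the start of Y22D7AL.10 (chrIII:1617151-1618929, minus strand), which runs in the opposite direction and encodes the HSP10 partner of the HSP60 chaperonin. It was nearer to that start than to hsp-60's own, at −609 bp. The hsp-6 summit was −206 bp from the start of C37H5.5, which was also nearer than hsp-6. The hsp-110 summit was −235 bp from the start of rpn-3, a subunit of the proteasome cap, against −209 bp for hsp-110. The peak lists cannot tell which gene of such a pair a summit belongs to. Of these 3 summits only that of hsp-60 was reproducible, while the share that follows is over reproducible summits alone. Of all 570 reproducible promoter summits, 23.2% counted for more than 1 gene (132 summits), and their median distance to the nearest start was −273.5 bp with quartiles of −513.75 and −126.5. By the nearest start of any gene, the hsp-3 summit at −54 bp lay closer than these quartiles, and the reproducible summits of hsp-1 at −433 bp and of hsp-60 at −204 bp lay between them.

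Annotated non-coding RNA (ncRNA) genes lay within 200 bp of 3 of the strongest summits. They were F26D10.23 at hsp-1 (chrIV:17278413-17278502), C30C11.14 at hsp-110, and C37H5.15 and C37H5.16 at hsp-6. Of these 3 summits only that of hsp-1 was reproducible, while the share that follows is over reproducible summits alone. Of the 570 reproducible promoter summits, 11.4% had such an ncRNA gene and no tRNA, snoRNA, snRNA, miRNA or rRNA gene within 200 bp. No gene of those 5 short RNA classes lay within 200 bp of a reproducible summit of the 6 genes.

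Outside the promoter window, 4 of the 6 genes had a reproducible summit within 200 bp of their 3′ end, and 1.76% of all 19973 genes did (352 genes). This measure was chosen after the data had been seen and carries no test. At hsp-1, the peak at chrIV:17281254-17281413 had its summit 27 bp past the end and a pooled signal of 130.9, with 48.0 in replicate 1 and 82.9 in replicate 2. That is higher than the promoter peak of hsp-1, and both replicates ranked it among their 1432 strongest, at 855 in replicate 1 and 478 in replicate 2. The gene body of nra-1 came within 200 bp of this summit, with its start 2842 bp away. A further reproducible summit of hsp-1 lay in a coding exon at 787 bp from the start, with 108.2 in the pooled list, 26.95 in replicate 1 and 92.5 in replicate 2. These 2 peaks were narrow, at 160 bp and 115 bp, where the other peaks of the 6 genes in the pooled list were 436 bp wide. The start of hsp-1 was thus high in replicate 1 alone, its exon peak was much higher in replicate 2, and its 3′ end was high in both.

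At the mitochondrial genes, the hsp-6 peak at chrV:4824016-4824451 had its summit at −110 bp from the end, inside the 3′ untranslated region, with a pooled signal of 110.3. Replicate 1 had 73.6 there, at rank 332. The strongest replicate 2 summit within 200 bp had 44.3, at rank 1701, and lay 82 bp past the end. A nearer replicate 2 summit, at −145 bp from the end, had 41.8, at rank 1944. The only reproducible summit of hsp-6 was therefore at its end and not at its start. The hsp-60 peak at chrIII:1625628-1626063 had its summit 43 bp past the end, with 108.2 in the pooled list, 48.5 in replicate 1 and 66.4 in replicate 2. The nearest starts of other genes lay at −811 bp (adss-1) for hsp-6 and at −786 bp (Y22D7AL.4) for hsp-60, so both summits also lay in the promoter window of a neighbour. At the ER gene hsp-3, the peak at chrX:6088753-6089188 had its summit 57 bp past the end, with 90.2 in the pooled list, 34.8 in replicate 1 and 52.3 in replicate 2. The nearest other start, that of C45B2.8, was 995 bp away with the summit downstream of it. The 3′ peaks of hsp-3 and hsp-6 were among the 1432 strongest of 1 replicate each, hsp-3 in replicate 2 and hsp-6 in replicate 1.

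The 2 genes without a reproducible summit at either end were hsp-110 and hsp-4. Near the end of hsp-110, the pooled signal was 45.3 at 102 bp past the end, −201 bp from the start of ufbp-1. At hsp-4 no pooled summit lay within 200 bp of the end, and the nearest, at −352 bp, had 26.8. Along the body of hsp-110, pooled summits of 60.5, 49.98, 50.3 and 39.9 lay at 428, 1475, 2067 and 2782 bp from the start, so its promoter value of 61.7 stood little above the rest of the gene. A reproducible summit at both the start and the end was found at hsp-1, hsp-3 and hsp-60, and at 50 of all 19973 genes. The members were chosen on their promoter peaks and the 3′ measure after seeing the data, so nothing is read from that difference. As given above, the start summit of hsp-1 rests on replicate 1, and both summits of hsp-60 also lie in windows of neighbours.

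**Figure D3:**
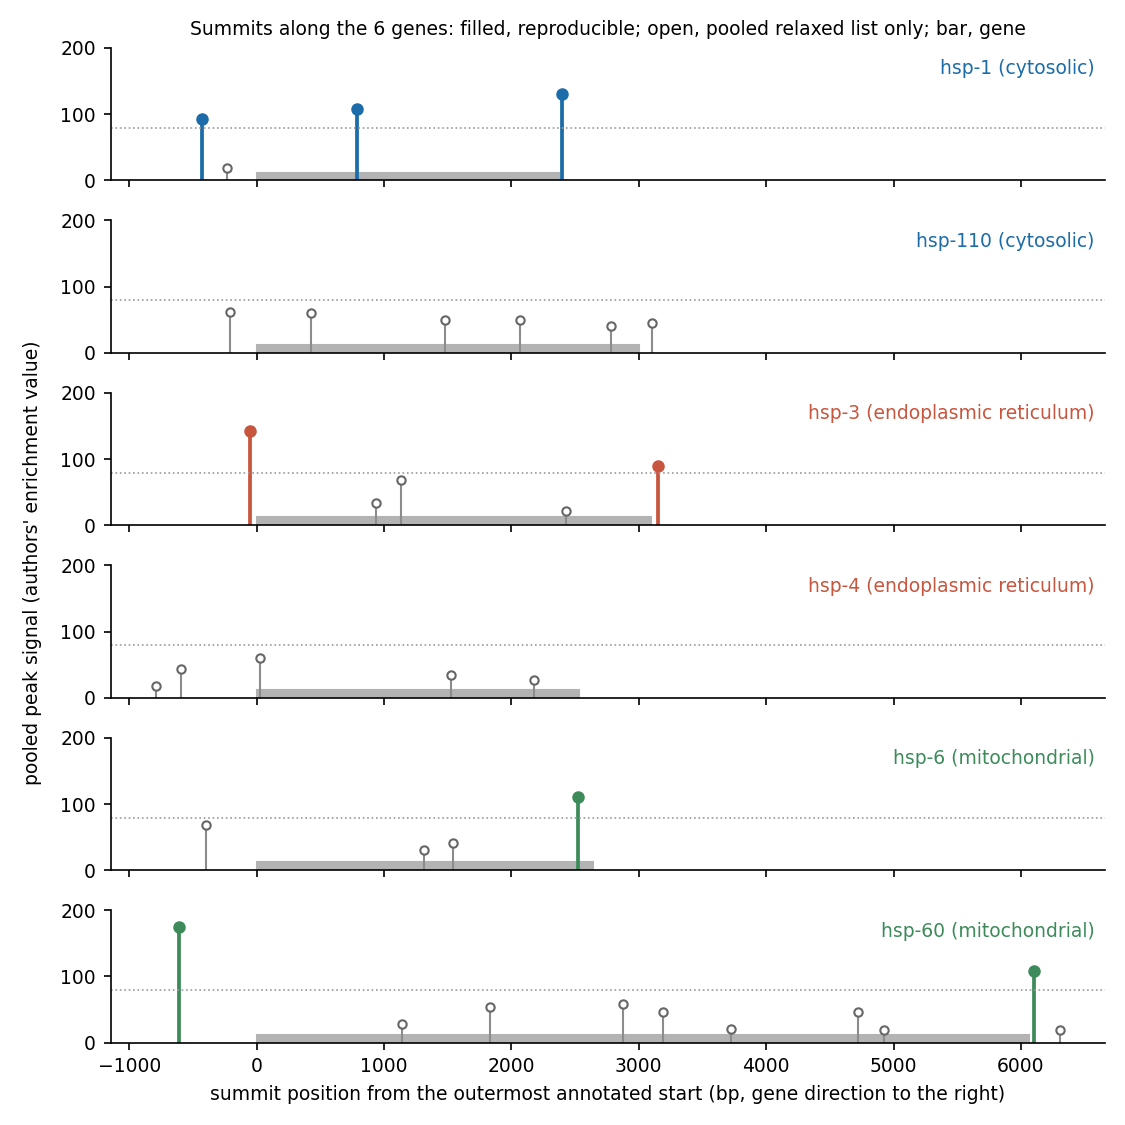
Summits along the 6 genes, drawn to scale from the outermost annotated start (x axis, bp, gene direction to the right), with height for the pooled signal (y axis, the authors' enrichment value). Filled markers are reproducible summits, open markers are in the pooled relaxed list only, the grey bar is the gene and the dotted line is the lowest reproducible signal, and filled markers stand at the start or the end of hsp-1, hsp-3, hsp-6 and hsp-60, with 1 more inside hsp-1.

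The letters were searched at the 5 genes other than hsp-3 and counted against all windows of the same length. In the 250 bases upstream, GAANNTTC was found at hsp-1, hsp-110 and hsp-4 and in 15.7% of all 19973 windows, and TTCNNGAA at the same 3 genes and in 15.0%. The units overlapped by 3 bases, giving 3 alternating units in a row, at hsp-1 (from −144 bp) and at hsp-110 (from −237 bp and from −115 bp), and in 1.63% of all windows. These are the 2 cytosolic genes. TGACGTG was found on the reverse strand at −83 bp of hsp-4, and in 2.39% of all windows. CCACG lay upstream of hsp-1 and hsp-4 and in 17.6% of all windows. TATAAA lay upstream of hsp-60 and hsp-110 and in 35.2%. CCAAT followed after 9 bases by CCACG, the full ER stress element, was in 0 of the 5 and in 4 of all windows. A match is a description of letters, not a site.

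The 101 bases around each strongest summit, which are narrower than the peaks, were searched as well. Of the 5 summits only those of hsp-1 and hsp-60 were reproducible, while the shares of summits that follow are over reproducible summits alone. Of the searched stress motifs, GAANNTTC and TTCNNGAA were in the 101-base summit window of hsp-110 alone among the 5. GAANNTTC was in 2.63% of the 570 reproducible promoter summits and TTCNNGAA in 3.33%. They overlapped from −28 bp of the summit, whereas 0.526% of the 570 reproducible promoter summits held such an overlap. These are the same bases as the overlap counted above from −237 bp of the hsp-110 start. TGACGTG was in 0 of the 5 summit windows and in 0.877% of the 570, and CCACG was in 0 of the 5 and in 18.8% of the 570. TATAAA was in 0 of the 5 and in 4.74% of the 570. CCAAT, added after the letters had been seen, was at −5 bp and 25 bp from the hsp-60 summit, the strongest of the 6 genes, and in 13.0% of the 570. In the upstream windows CCAAT was found at hsp-6 and in 38.9% of all genes.

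The summit windows differed widely in base content. GC content was 57.4% at hsp-60, 54.5% at hsp-6, 47.5% at hsp-110, 40.6% at hsp-4 and 31.7% at hsp-1. Of these summits only those of hsp-60 and hsp-1 were reproducible, while the summits they are set against are all reproducible. The median of the 570 reproducible promoter summits was 48.5%, with quartiles of 42.6% and 53.5%, and that of all upstream windows was 33.2%. Of the 570 summits, 9.47% had a higher GC content than hsp-60 and 95.8% a higher one than hsp-1. The hsp-60 summit was thus GC-rich, and that of hsp-1 was AT-rich. The part of base content in the signal was not tested.

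The annotated start needs care as the origin of these distances. In worms many messages are trans-spliced, and a leader replaces the original 5′ end, so the annotated start can be a splice acceptor, which ends in AG. The last 2 bases before the annotated start were AG at hsp-1, hsp-110, hsp-6 and hsp-60, and in 27.6% of all windows. They were not AG at hsp-4, whose strongest summit lay at 29 bp.

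The other genes of protein folding and its stress responses were taken from 10 lists of 80 matched genes, with 4 further names unmatched. Of these 80, 13 had a reproducible promoter peak (16.25%), beside the 3.39% of all genes given above, and 59 had a pooled peak, with a median strongest signal of 44.9. The median of the 6 members was 80.2, and as they were chosen on their peaks nothing is read from the gap. Of the 13 summits, 10 were shared with another protein-coding gene, which for Y22D7AL.10 was the member hsp-60. Of all 570 reproducible promoter summits, 23.2% were shared. That share is per summit, the share per gene was not counted, and nothing is read from the difference.

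In the cytosol, the co-chaperones had 3 of 13 genes with a reproducible peak. These were bag-1, an HSP70 exchange factor, with a pooled signal of 155.6, dnj-13, a J-domain protein, with 120.6, and hip-1, an HSP70-binding protein, with 91.7. The replicates at bag-1 were 62.6 in replicate 1 and 95.6 in replicate 2. Its pooled signal lay between those of hsp-60 and hsp-3. The CCT chaperonin, the cytosolic counterpart of the HSP60 ring, had 3 of 8 subunit genes, cct-7 with 100.9, cct-1 with 96.2 and cct-8 with 85.4. All 3 summits lay nearer to the start of another gene. The distances were −310 bp for cct-7 against −129 bp for T10B5.4, and −249 bp for cct-1 against −171 bp for mig-5. For cct-8 the distance was −489 bp, against −132 bp for Y55F3AR.2. Prefoldin, which hands substrates to CCT, had 1 of 6, pfd-1 with 96.8 at −978 bp, close to the edge of the window. That summit was nearer to the start of F01G4.6, at 66 bp. The small heat shock proteins had 1 of 14, sip-1 with 81.7 at 172 bp. The stress-inducible hsp-16.2 and hsp-16.41 shared a pooled summit of 46.8, and hsp-16.1, hsp-16.11, hsp-16.48 and hsp-16.49 had none, though some of these are near-identical copies, at which the placing of reads is uncertain. Other cytosolic HSP70 and HSP90 genes had 0 of 5, the highest being hsp-90 with 72.4.

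In the ER, the chaperones and folding enzymes other than hsp-3 and hsp-4 had 2 of 12, dnj-20, a J-domain protein, with 89.99 and enpl-1, the GRP94 homologue, with 85.6, while pdi-2, a disulfide isomerase, had 78.2, just below the reproducible list. The list of mitochondrial chaperones and proteases had 3 of 9. These were Y22D7AL.10 through the summit it shares with hsp-60, clpp-1, a matrix protease, with 92.7, and phb-2, a prohibitin, with 79.6. The clpp-1 summit, at −127 bp, was nearer to the start of mdt-22, at −9 bp. The 9 include trap-1, which in worms names a translocon-associated protein of the ER and had no reproducible promoter peak. The regulators of the responses had none. They were 0 of 4 for the heat shock response, with hsb-1 highest at 43.2, 0 of 5 for the ER unfolded protein response, with atf-4 highest at 50.1, and 0 of 4 for the mitochondrial one, with ubl-5 highest at 52.2. With 4 or 5 genes in each regulator list, a count of 0 is near the 3.39% of all genes, and the difference from the other lists was not tested.

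**Figure D4:**
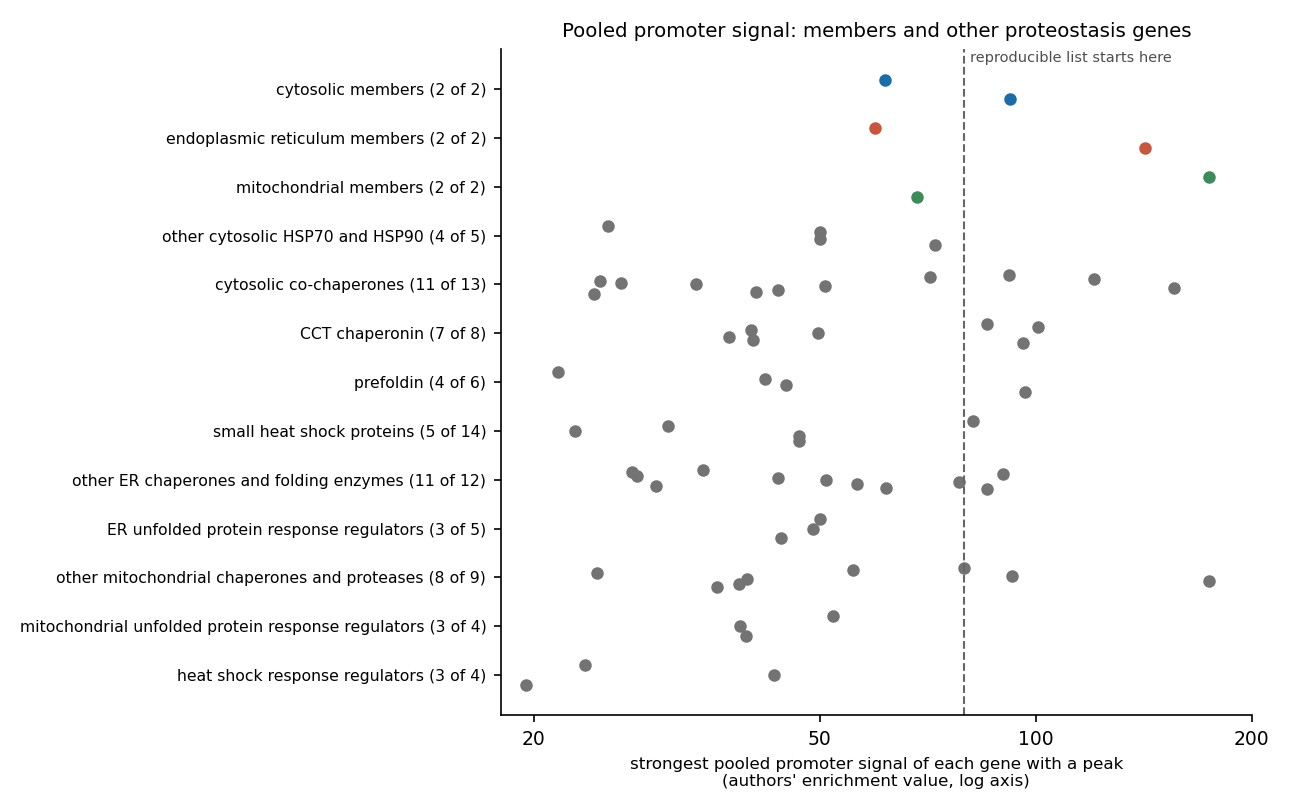
Strongest pooled promoter signal (x axis, the authors' enrichment value, log axis) of each gene with a pooled peak, for the 6 members by compartment and for the 10 lists of other proteostasis genes, with the number of genes with a peak of all genes in the list beside each name. Points to the right of the dashed line at 79.4 are in the reproducible list, which holds 3 members and 13 of the other 80 genes.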

How the data were processed

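Chromatin of 2 biological replicates was immunoprecipitated with an antibody against GFP, per the labels' description, while the labels' antibody tag names die-1, and sheared by sonication. The deposited ce11 peak lists were used: reproducible peaks after the authors' irreproducible discovery rate (IDR) threshold, and relaxed peaks of the pooled reads and of each replicate. The signal column is the authors' enrichment value, and the deposited −log10 q-values were read but not used to rank, since they reach a common ceiling. The labels and files name no peak caller, aligner or IDR cutoff. The ce10 lists were not used here.

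Summits were placed on Ensembl 115 gene models with Python 3.11.15, numpy 2.4.6, pandas 2.3.3 and matplotlib 3.10.9, and the assignment was tested on simulated data. Sequence came from the RefSeq genome of the same build, and that of hsp-3 is not reported here. The members and lists were chosen with earlier results of these data known, and no test was run. Named besides the members were list genes with a reproducible peak (with none, the highest pooled signal), genes sharing a summit, and the 2 genes most alike in both replicates. pdi-2, other hsp-16 genes and genes at 3′ ends were named after their values were seen. The 3′ ends, CCAAT, bases before the start and support by both replicates were added after seeing the data.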

Additional observations from a re-analysis of the deposited data

How the results depend on the processing

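The count of members with a reproducible promoter peak was 2 or 3 under every alternative run, against 3 as reported, and that with a pooled peak 5 or 6. Which genes they were moved more. The cytosolic count, 1 as reported, was 0 with the 50% of peaks of highest signal and 0 with support by both replicates, and from 0 to 1 without either replicate. The ER count was from 1 to 2 without either replicate. The mitochondrial count was 0 in the window of 500 bp upstream to 100 bp downstream and 0 with the nearest start only, since the hsp-60 summit is far from its start and nearer to Y22D7AL.10. In that narrow window the strongest pooled signal of hsp-60 was 46.5 in place of 174.3. The other proteostasis genes, 13 as reported, were 8 with the nearest start only, 3 with the 50% of peaks of highest signal and 6 with support by both replicates. All protein-coding genes, 677 as reported, were 1052 in the window of 2000 bp upstream to 500 bp downstream, 295 with the 50% of highest signal and 411 with support by both replicates. Without peaks within 200 bp of short RNA genes they were 520, while the members stayed at 3 and the other proteostasis genes at 13. The shares, ranks, GC content and motif shares over reproducible promoter peaks given above include such peaks. The 4 members with a reproducible 3′ end peak became 2 with support by both replicates and 1 with the 50% of highest signal, and 3 without either replicate. Support by both replicates and all 3′ end alternatives were chosen after seeing the data. No paired analysis was possible because the series holds 1 group. With 2 replicates and no read depth, no error of a signal can be given, and a gene without a peak is known only to lie below the floors of the lists.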

Other observations

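Reproducible summits within 200 bp of the 3′ end were also found at 12 of the 80 other proteostasis genes (15%), beside 1.76% of all genes. Of the cytosolic co-chaperones they were 6 of 13, namely ahsa-1, daf-41, dnj-12, dnj-13, fkb-6 and unc-45. Of the other cytosolic HSP70 and HSP90 genes they were 2 of 5, hsp-90 and hsp-70. In the ER list the gene was crt-1, which encodes calreticulin, and of the small heat shock proteins it was hsp-12.3. In the mitochondrial list they were trap-1 and Y22D7AL.10, though the worm symbol trap-1 names a translocon-associated protein of the ER. The CCT chaperonin, prefoldin and the regulator lists had none. Of the 12, 2 also had a reproducible promoter summit. These genes were picked out after their values were seen, and the measure carries no test.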
